A study of Mus musculus with 30 samples.

Results

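The subject is a list of 38 genes whose products carry out mitosis. They were taken by name from textbook knowledge, with earlier results of these data known. All were found in both gene tables, 38 of 19468 genes listed for the kidney and 38 of 19685 for the pancreas. Poly(A) RNA of kidney and pancreas was sequenced from C57BL/6 mice that had received doxycycline at 0.2 mg/ml in the drinking water for 7 days, so no group is untreated. In each tissue there were 5 mice in each of 3 genotypes: i4F (labelled wild type apart from the cassette), i4F Ink4a/Arf KO, and a p53 knockout, labelled i4F p53 KO in the kidney but only p53 KO in the pancreas. i4F is a cassette from which doxycycline switches on the reprogramming factors Sox2, Klf4, Myc and Oct4 (gene Pou5f1), and gene-level values do not tell its transcripts apart from endogenous ones. Ink4a/Arf is the Cdkn2a locus and p53 is encoded by Trp53. The labels do not give the age or sex of the mice, or say whether a kidney and a pancreas came from the same mouse. Levels are FPKM, fragments divided by transcript length and by library size, so they are shares of a library and not amounts per cell.

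Mitosis is driven by Cdk1 bound to cyclins A and B. Kinases of the Polo, Aurora and NIMA families build the spindle, the checkpoint kinases Bub1, BubR1 and Mps1 hold the anaphase-promoting complex inactive until chromosomes are attached, and Cdc20 then directs that complex to destroy cyclin B and securin. Most of these genes are transcribed late in the cell cycle under the MuvB complex with B-Myb and FoxM1, with the trimeric factor NF-Y bound at CCAAT boxes. In resting cells the DREAM complex represses them through CHR elements such as TTTGAA, and p53 and p21 (Cdkn1a) act in that repression. Adult kidney and pancreas hold few dividing cells, so such transcripts are low there.

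The promoters of 7 members are shown because CCAAT stands in all 7 of the stretches printed and TTTGAA in 6, all but Ccnb1. They were picked for these motifs, and counts over all members with a window follow. Each line is the 120 bases before the RefSeq transcription start on build GRCm38.p6, 5′ to 3′ along the gene, with CCAAT (other strand ATTGG) and TTTGAA (other strand TTCAAA) in capitals. They lie at Cdk1 chr10:69352913-69353032, Ccnb1 chr13:100786487-100786606, Cdc20 chr4:118437344-118437463, Ube2c chr2:164769809-164769928, Kif11 chr19:37376262-37376381, Prc1 chr7:80294356-80294475 and Top2a chr11:99024190-99024309, with Ube2c, Kif11 and Prc1 on the plus strand and the other 4 on the minus strand.
Cdk1: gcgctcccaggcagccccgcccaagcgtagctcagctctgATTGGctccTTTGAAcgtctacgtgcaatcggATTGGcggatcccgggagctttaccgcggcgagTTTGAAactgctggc
Ccnb1: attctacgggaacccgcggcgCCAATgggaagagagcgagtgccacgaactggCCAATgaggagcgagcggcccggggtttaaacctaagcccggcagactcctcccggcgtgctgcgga
Cdc20: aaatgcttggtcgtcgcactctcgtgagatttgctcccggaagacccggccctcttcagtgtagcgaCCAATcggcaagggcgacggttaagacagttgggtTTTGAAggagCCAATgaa
Ube2c: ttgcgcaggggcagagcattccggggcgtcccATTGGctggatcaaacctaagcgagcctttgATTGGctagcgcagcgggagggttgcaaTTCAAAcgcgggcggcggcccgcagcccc
Kif11: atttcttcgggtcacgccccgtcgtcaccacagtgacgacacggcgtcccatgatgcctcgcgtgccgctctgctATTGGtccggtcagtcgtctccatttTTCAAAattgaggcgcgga
Prc1: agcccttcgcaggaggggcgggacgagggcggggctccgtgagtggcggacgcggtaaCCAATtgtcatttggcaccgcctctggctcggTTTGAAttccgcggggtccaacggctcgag
Top2a: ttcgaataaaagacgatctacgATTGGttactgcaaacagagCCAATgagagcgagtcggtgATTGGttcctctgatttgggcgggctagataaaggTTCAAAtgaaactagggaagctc

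Of the 38 members, 33 matched a RefSeq promoter window of 250 bases before to 50 after the start. CCAAT on either strand stood in the windows of 26 of these 33 genes (78.8%) against 41.1% of all 27025 genes with a window, and 2 or more copies in 18 (54.5%) against 13.3%. TTTGAA on either strand stood in 25 (75.8%) against 20.2%, and both motifs in 22 (66.7%) against 7.97%. The printed stretch of Ccnb1 holds 2 CCAAT copies and no TTTGAA, and that of Top2a holds 3 CCAAT copies and 1 TTTGAA. The median CCAAT match began 65 bases before the start, and the median TTTGAA match 2 bases after it. Birc5, Melk, Nuf2 and Nusap1 had a window with neither motif. A CCAAT and a TTTGAA match shared bases in 1 of 35 member windows and in 47 of 32851 windows in all. These are matches of letters, and binding was not measured.

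Before the members, the labels were checked. Umod, a kidney tubule protein, ran from 505 to 2985 FPKM in kidney libraries and from 0.212 to 2.76 in pancreas, and the pancreatic colipase gene Clps from 121 to 91327 FPKM in pancreas and from 0.390 to 220.3 in kidney, above 100 FPKM in 4 kidneys. Trp53 measured 10.2, 5.27, 4.9, 7.11 and 7.77 FPKM in i4F p53 KO kidneys, below every one of the other 10 (limma adjusted p = 0.00547 against i4F). In pancreas it stood at 16.4, 19.2, 10.7, 6.65 and 24.8 FPKM under the p53 KO label and at 1.94, 1.64, 3.01, 6.99 and 3.44 in i4F. After the scaling described below it ran from 4.17 to 6.66 FPKM against 3.55 to 6.96 in i4F, so the groups overlapped. No loss is seen in this gene-level value, which does not show which exons were read. Cdkn2a was at most 0.0782 FPKM in i4F kidney and 0.318 in i4F pancreas, too low to check its deletion. The libraries labelled p53 KO also stood apart in pancreas as a whole. They held 10507 to 13194 genes at 1 FPKM or more against 6596 to 9852 in the other 10, and acinar transcripts, which fill the other libraries, summed to 4899 to 339600 FPKM over 18 genes against 293500 to 487100. Some acinar genes are listed at exactly 0 in libraries that are otherwise full of them, so these sums are incomplete. When one class of transcript fills less of a library, all others take a larger share, so each comparison is given as deposited and again with each library divided by a median-of-ratios factor, the median over genes of its ratio to the tissue's geometric mean, here called scaled. The dividing factors were 1.31 to 3.93 in the pancreas libraries labelled p53 KO, 0.463 to 1.00 in the other pancreas libraries and 0.891 to 1.16 in kidney. Fold changes below are on the log2(FPKM + 1) scale from limma, which makes the changes of genes below about 1 FPKM look smaller than they are.

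The first comparison asked how the members differed between the pancreas libraries labelled p53 KO and those of i4F. As deposited, all 38 were higher, with a median log2 fold change of 2.81 (range 1.28 to 4.68), and all 38 passed the test at an adjusted p of 0.05. The background was as lopsided: 73.6% of all 19679 genes passed as higher and 1.67% as lower, with a median of 0.94, so the count by itself says little about these genes. After scaling, 26.7% of all genes passed as higher and 20.5% as lower, with a median of 0.01, and again all 38 members were higher, with a median of 1.61 (0.56 to 3.0). On the linear scale the ratio of group means had a median of 54.4 (17.1 for Spc25 to 218.6 for Anln) as deposited and 14.7 (3.58 to 51.7, the same genes) after scaling. No value of the 5 mice overlapped with i4F for any member on either scale, against 50.9% of all genes as deposited and 17.7% after scaling. A filter of 1 FPKM in at least 5 libraries kept 36 members, of which 26 reached 1 FPKM in no library outside the group labelled p53 KO and none reached it in as many as 5, so the counts here use the fit without the filter. With it, 91.2% of genes passed as higher and 2.25% as lower. By Xist and Ddx3y, given under Other observations, all 5 libraries labelled p53 KO read as male and i4F replicates 3 to 5 as female. Sex and group therefore partly coincide in this comparison. More dividing cells and more mitotic RNA per cell cannot be told apart in bulk tissue.

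**Figure D1:**
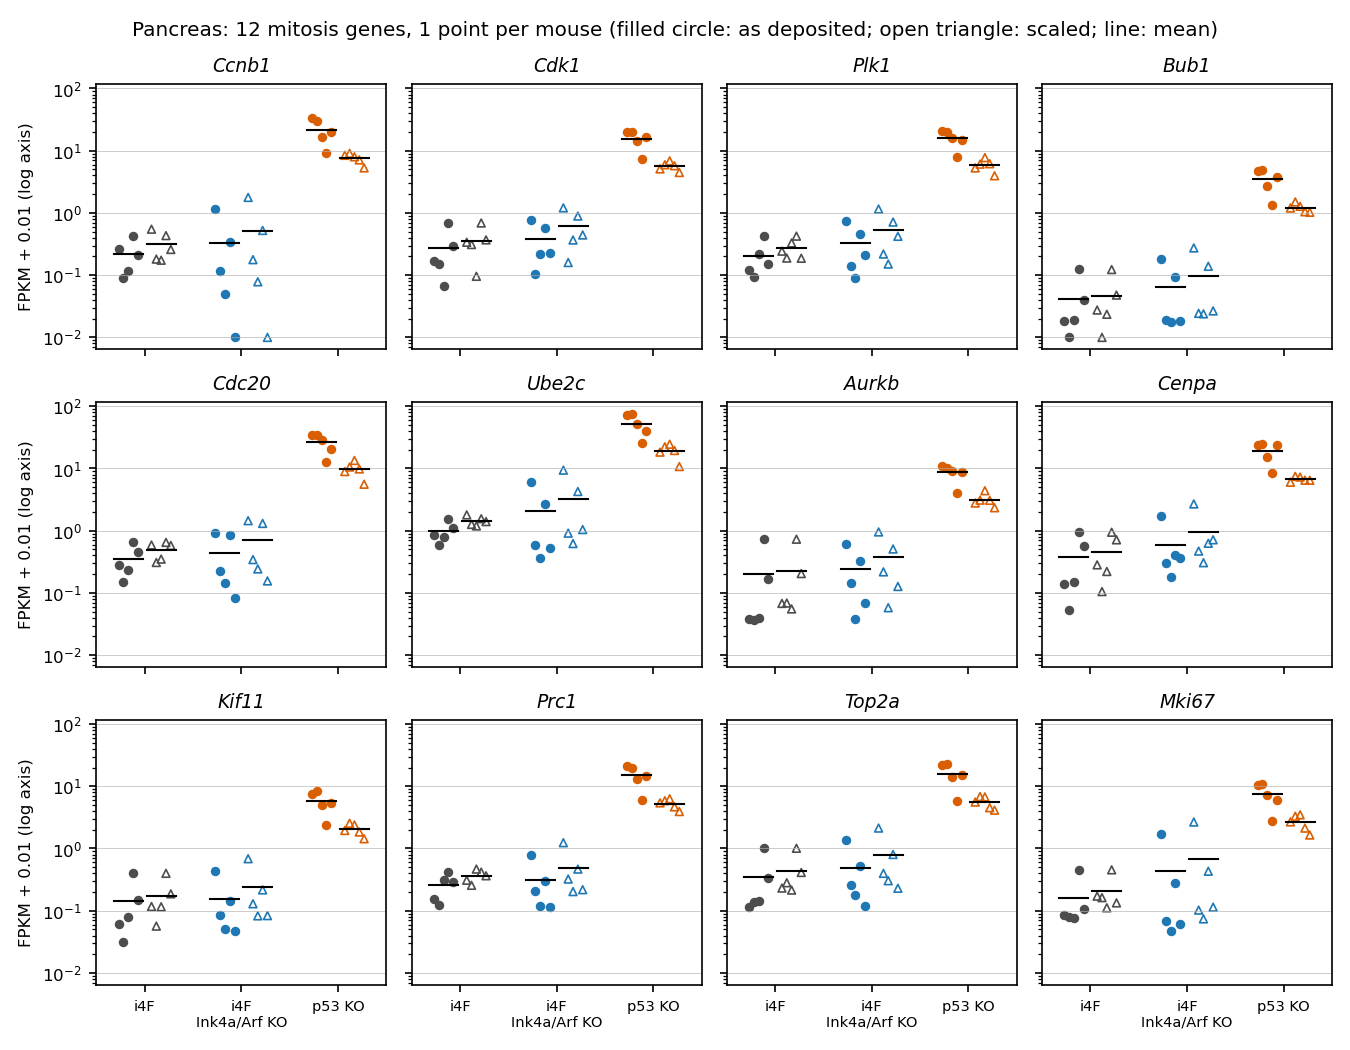
FPKM (plus 0.01, log axis) of 12 members in each of the 15 pancreas libraries, 1 point per mouse, by genotype. Filled circles are deposited values, open triangles scaled values and lines group means. The 5 libraries labelled p53 KO lie above every i4F library in each panel on both scales, and their scaled values lie closer to the other groups than their deposited ones.

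The cyclins and Cdk1, the engine of mitotic entry, rose together. Ccnb1, the mitotic cyclin B1, measured 33.1, 30.2, 16.8, 9.28 and 19.7 FPKM in the libraries labelled p53 KO against 0.256, 0.0793, 0.108, 0.424 and 0.198 in i4F and 1.13, 0.106, 0.0392, 0.328 and 0 in i4F Ink4a/Arf KO. Every value of the first group was several times the highest of the other 10, which was i4F Ink4a/Arf KO replicate 1. After scaling it ran from 5.29 to 9.06 FPKM against 0.164 to 0.538 in i4F, which is 2.70 ± 0.24 (SE) in log2 fold change with a limma adjusted p of 2.07e-06. Cdk1, its kinase partner, measured 20, 19.8, 14.4, 7.49 and 16.6 FPKM against 0.156, 0.139, 0.0565, 0.683 and 0.285 in i4F, with means of 15.7 ± 5.13 and 0.264 ± 0.248 (SD, n = 5). Replicate 4 was the lowest under the p53 KO label and another replicate 4 the highest in i4F, and these did not meet. Scaled, the Cdk1 difference was 2.29 ± 0.17 (SE). Ccna2 and Ccnb2, the other cyclins, differed by 2.2 and 2.00 after scaling. The 4 genes had a median of 3.71 as deposited and 2.25 after scaling.

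All 4 mitotic kinases passed as higher. Plk1, the Polo-like kinase of centrosome maturation and mitotic entry, stood at 20.8, 20.2, 16.3, 8.05 and 14.7 FPKM in the libraries labelled p53 KO and at 0.111, 0.0825, 0.21, 0.415 and 0.141 in i4F. Those groups were far apart, and the i4F Ink4a/Arf KO mice (0.0808 to 0.735 FPKM) overlapped with i4F. Scaled, Plk1 differed by 2.42 ± 0.18 (SE), Aurka, the spindle-pole Aurora kinase, by 1.95, the centrosome kinase Nek2 by 1.59 and the cell-cycle kinase Melk by 1.43. In the spindle checkpoint the differences were smaller on this scale because the levels were low. Bub1 measured 4.68, 4.98, 2.66, 1.35 and 3.79 FPKM against 0.00836, 0, 0.00891, 0.114 and 0.0301 in i4F. Ttk, which encodes Mps1, measured 3.08, 3.21, 2.34, 1.28 and 2.82 FPKM against 0.0283, 0.0153, 0.0443, 0.0922 and 0.0632. In i4F both genes were near the bottom of what FPKM can list, and 1 mouse had Bub1 at 0. The scaled log2 fold changes were 1.08 ± 0.07 (SE) for Bub1, 1.29 for Bub1b, which encodes BubR1, and 0.84 ± 0.05 (SE) for Ttk (limma adjusted p = 8.73e-08).

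Genes of anaphase and protein turnover held both the largest and some of the smallest changes. Ube2c, the ubiquitin-conjugating enzyme of the anaphase-promoting complex, reached 72, 74.2, 51.6, 25.4 and 40 FPKM in the libraries labelled p53 KO. The i4F mice had 0.85, 0.581, 0.778, 1.55 and 1.11 FPKM. Mice of the i4F Ink4a/Arf KO group had 6.02, 0.573, 0.351, 2.72 and 0.513 FPKM, where replicates 1 and 4 were above every i4F mouse. Its difference from i4F was 4.68 ± 0.43 (SE) as deposited and 3.0 ± 0.43 (SE) after scaling (limma adjusted p = 8.43e-05). Cdc20, the activator that brings substrates to that complex, measured 35.1, 35.1, 28.3, 12.8 and 20.8 FPKM against 0.276, 0.138, 0.224, 0.642 and 0.453 in i4F. No i4F mouse came near the lowest knockout mouse, and the scaled difference was 2.81 ± 0.24 (SE). Espl1, separase, which cuts cohesin at anaphase, measured 4.39, 4.22, 2.71, 1.07 and 2.38 FPKM against 0.0198 to 0.209 in i4F, a scaled difference of 0.88 ± 0.11 (SE). Cdca3, a mitotic entry factor, differed by 1.96.

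The chromosomal passenger complex corrects wrong attachments and marks the division plane. Birc5, survivin, measured 38.7, 41, 34.6, 15.9 and 26.5 FPKM in the libraries labelled p53 KO, 0.287, 0.222, 0.359, 1.14 and 0.348 in i4F and 2.8, 0.339, 0.217, 1.34 and 0.234 in i4F Ink4a/Arf KO. Replicate 1 of the last group was the highest of the 10 outside the group labelled p53 KO, yet well below its lowest. The scaled difference from i4F was 2.91 ± 0.34 (SE). Aurkb, the kinase of the complex, measured 10.9, 10.3, 9.22, 4.01 and 8.69 FPKM against 0.0276, 0.0272, 0.0298, 0.723 and 0.155 in i4F, of which replicate 4 was far above the other 4. Aurkb and Cdca8, borealin, differed by 1.77 and 2.09 after scaling. At the centromere, Cenpa, the histone H3 variant that marks it, measured 23.6, 24.8, 15.3, 8.46 and 24.1 FPKM against 0.13, 0.0441, 0.139, 0.939 and 0.56, a scaled difference of 2.45 ± 0.24 (SE). The outer kinetochore genes Ndc80, Nuf2 and Spc25, which encode parts of one microtubule-binding complex, differed by 1.25, 1.18 and 0.96. Cenpe, a kinetochore motor, differed by 0.85 and Cenpf by 0.56 ± 0.07 (SE), the smallest of the 38. Cenpe and Cenpf reached 1 FPKM in 4 libraries each and are the 2 members below the filter in pancreas.

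Spindle motors and the proteins of cell cleavage also rose. Kif11, the motor that pushes the poles apart, measured 7.63, 8.43, 5.0, 2.39 and 5.31 FPKM in the libraries labelled p53 KO against 0.051, 0.0216, 0.0696, 0.39 and 0.141 in i4F. The groups were well apart and the scaled difference was 1.37 ± 0.13 (SE). The other 5 of this class also passed: Kif2c, which shortens microtubules, the chromosome motor Kif4, Tpx2, which activates Aurora A, and the spindle-binding Nusap1 and Dlgap5. The 6 ranged from 0.94 to 1.81. Prc1, which bundles the microtubules of the midzone, measured 21.2, 19.5, 13.2, 6.08 and 14.6 FPKM against 0.142, 0.114, 0.30, 0.408 and 0.282, a scaled difference of 2.19 ± 0.16 (SE). Anln, anillin, a scaffold of the cleavage furrow, measured 41.3, 36.8, 16.2, 5.6 and 22.1 FPKM against 0.0528, 0.0601, 0.0881, 0.23 and 0.128, the largest ratio of means of the 38. Scaled, Anln differed by 2.88 ± 0.19 (SE). The midzone motor Kif20a, both centralspindlin subunits Kif23 and Racgap1, and Ect2, which they recruit to the midzone, differed by 1.62, 1.45, 2.18 and 1.40. For chromosome structure, Top2a, the topoisomerase that untangles sister chromatids, measured 21.9, 22.7, 14.2, 5.89 and 15.4 FPKM against 0.105, 0.126, 0.134, 1.0 and 0.32. The proliferation marker Mki67, which coats mitotic chromosomes, measured 10.5, 10.9, 7.29, 2.76 and 6.11 FPKM against 0.0769, 0.0705, 0.0667, 0.446 and 0.0984. Their scaled differences were 2.21 ± 0.24 (SE) and 1.58 ± 0.29 (SE).

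**Figure D2:**
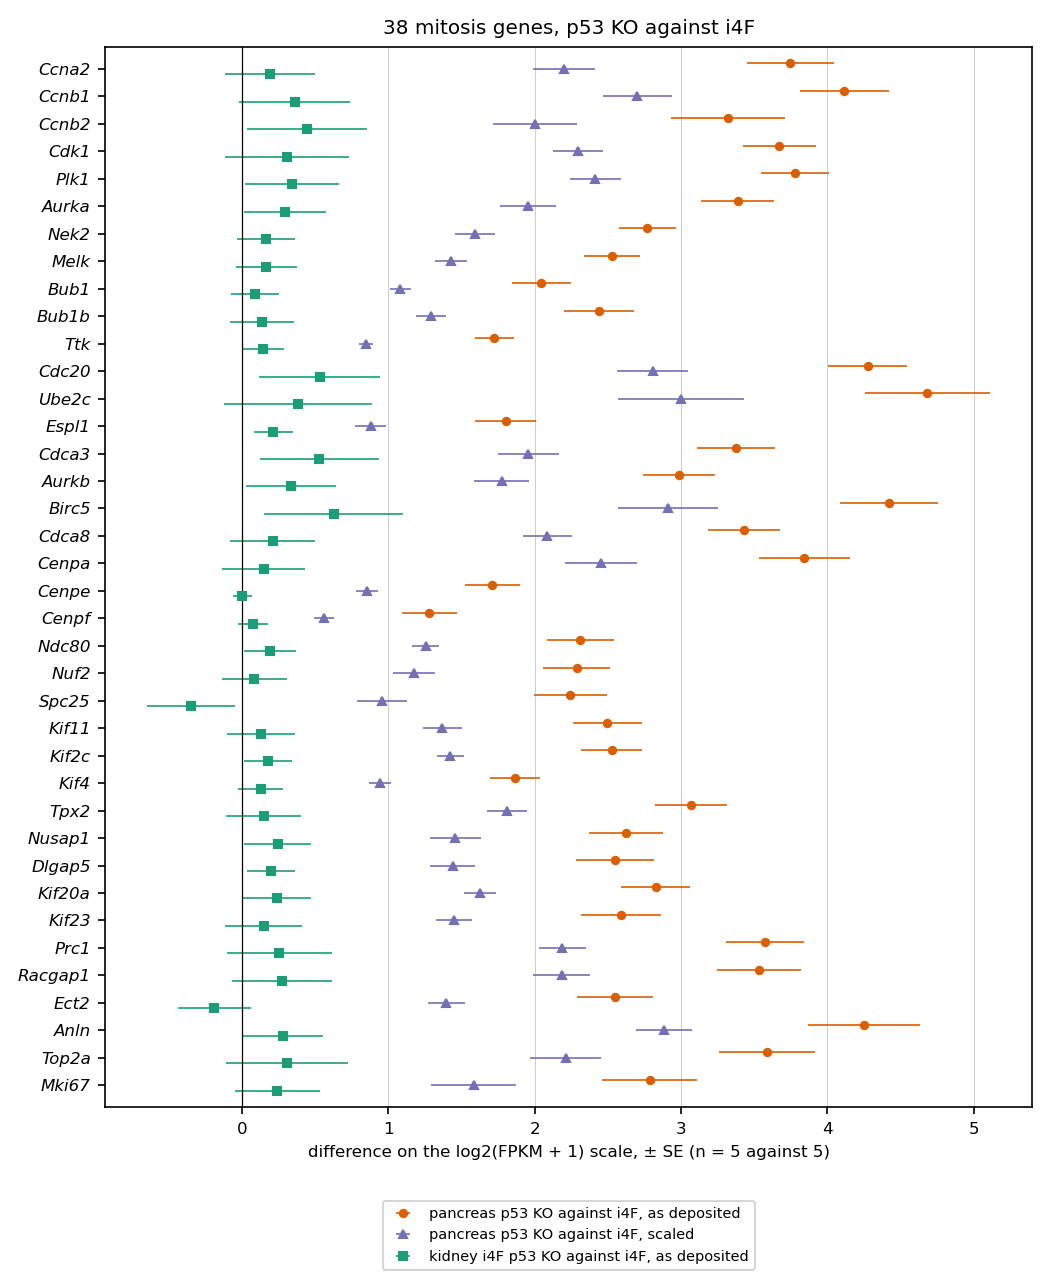
log2 fold change of each of the 38 members between p53 KO and i4F (difference of log2(FPKM + 1) ± SE, 5 mice a group) for pancreas as deposited, pancreas after scaling and kidney as deposited, all without a filter. The pancreas points range from 1.28 to 4.68 as deposited and from 0.56 to 3.0 after scaling, and the kidney points lie between -0.35 and 0.63.

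The same 5 libraries labelled p53 KO gave like values against i4F Ink4a/Arf KO, a comparison that shares them and is no separate evidence. All 38 members passed as higher, with a median of 2.76 as deposited (background 75.3% higher, 91.7% with the filter) and 1.53 after scaling (27.7% higher). Ube2c differed by 2.60, Anln by 2.81, Cdc20 by 2.69 and Cdk1 by 2.07 after scaling. The groups did not overlap for all 38 as deposited and for 37 after scaling (background 62.3% and 20.6%). The exception was Mki67, where i4F Ink4a/Arf KO replicate 1 had 2.65 scaled FPKM against 2.67, 3.28, 3.46, 2.12 and 1.64 in the libraries labelled p53 KO. Mki67 still passed, at 1.29 ± 0.29 (SE) (limma adjusted p = 0.00227).

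Within the group labelled p53 KO the order of the mice depended on the scale. The 38 members summed to 613, 603, 406, 192 and 421 FPKM in replicates 1 to 5 as deposited and to 156, 181, 193, 147 and 113 after scaling, against at most 32.8 and 51.2 in any other pancreas library. Replicate 4 was the lowest of the 5 for all 38 members as deposited but for 6 after scaling, when replicate 5 was lowest for 29. Replicate 4 also held the highest acinar sum of its group, 339600 FPKM, and replicate 5 the lowest, 4899. Markers of several other cell types were also higher in these libraries. As deposited, 7 fibroblast markers summed to 506 to 7247 FPKM in the libraries labelled p53 KO and 52.7 to 241 in i4F, and 10 macrophage markers to 575 to 3010 against 40.8 to 428. Duct markers, 7 genes, summed to 587 to 2528 FPKM against 88.8 to 157. After scaling, 6 of 7 fibroblast, 10 of 10 macrophage and 4 of 7 duct markers passed as higher against i4F (26.7% of all genes). Of 18 acinar markers 11 passed as lower (20.5% of all genes). No fibroblast, macrophage or duct marker was at 0 in all 5 libraries of a group. Neutrophil markers, 7 genes, summed to 4894, 279.1, 47.5, 26.7 and 312.9 FPKM in replicates 1 to 5, and lymphocyte markers, 9 genes, to 79.5 in replicate 1 and 0.685 to 3.72 in the other 4. Replicate 1, which stood apart in both, was highest for 23 of the 38 members as deposited and for 1 after scaling. After scaling 1 of 7 neutrophil and 0 of 9 lymphocyte markers passed as higher against i4F (26.7% of all genes). Endothelial markers summed to 27 to 91.7 FPKM as deposited against 14.2 to 29.5 in i4F. Scaled, they summed to 16.5 to 24.6 FPKM against 21.1 to 32.8. The part of these cell types in the rise of the members was not tested.

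Other genes of the same pathway came from lists drawn up by name, also with earlier results of these data known. After scaling, 66 of 74 further genes of the mitotic machinery were higher against i4F and none lower (median 0.87), and 38 of 40 DNA replication genes were higher and none lower (median 0.90), so the rise was not limited to mitosis. Subunits of the anaphase-promoting complex, which is present through much of the cell cycle, had 9 of 15 higher and 3 lower (median 0.37). Of 20 regulators 10 were higher and 4 lower. The share over all genes on this scale was 26.7% higher and 20.5% lower, so the counts of lower genes in these last lists are at the background. Mybl2, which encodes B-Myb, measured 18.8, 19, 11.8, 4.68 and 7.03 FPKM in the libraries labelled p53 KO against 0.0452, 0.0298, 0.306, 0.176 and 0.116 in i4F. Foxm1 measured 10.7, 9.95, 6.24, 2.65 and 7.7 FPKM against 0.0792, 0.0259, 0.0703, 0.253 and 0.124. Both were apart from i4F in all 5 mice, and the scaled differences were 2.11 ± 0.21 (SE) and 1.62 ± 0.10 (SE). At the other end, Tfdp2, an E2F partner, differed by -1.22 and Lin37, a MuvB subunit, by -1.01. Cdkn1a, the p21 gene, measured 69.5, 59.1, 56.7, 28.6 and 161 FPKM against 2.35, 2.18, 28.3, 35.9 and 8.1 in i4F, groups that overlapped, and its scaled difference of 0.80 ± 0.53 (SE) did not pass (limma adjusted p = 0.24).

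Pancreas without Ink4a/Arf was then compared with i4F pancreas. No member passed (background 0%; smallest limma adjusted p = 1, 0 members at an unadjusted p under 0.05), and no member had groups apart (background 0.0407%). Values were positive for 33 of 38 as deposited (median 0.04, all genes -0.03) and for 36 after scaling (median 0.09, all genes 0.00). The largest differences were 0.32 ± 0.43 (SE) for Ube2c and 0.31 ± 0.34 (SE) for Birc5, and the lowest of those above the filter were -0.05 ± 0.25 (SE) for Spc25 and -0.02 ± 0.14 (SE) for Ttk. Single mice held the highest values, and without i4F Ink4a/Arf KO replicate 1 the deposited median of the 38 was -0.0504. As deposited, i4F Ink4a/Arf KO replicate 1 was the highest of the 10 libraries outside the group labelled p53 KO for 30 members, and i4F replicate 4 for 7. In sum the 38 members reached 4.85, 3.87, 5.25, 17.2 and 9.02 FPKM in i4F and 32.8, 5.34, 3.37, 14.2 and 3.8 in i4F Ink4a/Arf KO. Replicate 1 had also 271.9 FPKM of erythroid and 401.2 of neutrophil markers, against at most 58 and 30 in the other 4 mice of its group, and i4F replicate 4 had 83.7 FPKM of lymphocyte markers against at most 1.28 in the other 4. Their part in these members' values was not tested.

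In kidney the members were expressed at low but measurable levels in all groups, and none passed in any comparison. Cdc20 measured 1.43, 0.294, 0.974, 5.14 and 1.78 FPKM in i4F, 4.11, 0.971, 1.3, 5.17 and 3.68 in i4F p53 KO and 3.25, 2.22, 3.23, 0.941 and 1.94 in i4F Ink4a/Arf KO. Replicate 2 of i4F was lowest, and replicate 4 of i4F and replicate 4 of i4F p53 KO shared the top, so the groups overlapped throughout. Ube2c measured 2.28, 0.914, 1.49, 13.3 and 4.75 FPKM in i4F, 5.82, 2.2, 2.7, 6.4 and 7.08 in i4F p53 KO and 9.0, 3.65, 5.65, 2.03 and 2.88 in i4F Ink4a/Arf KO. Cdk1 measured 0.703, 0.318, 0.31, 4.42 and 1.28 FPKM in i4F, 2.77, 0.532, 0.628, 3.48 and 1.49 in i4F p53 KO and 2.45, 1.4, 2.44, 0.433 and 0.912 in i4F Ink4a/Arf KO. In both genes i4F replicate 4 was above every other kidney while replicates 2 and 3 of its group were at the bottom. Top2a had the same shape, with 0.778, 0.353, 0.326, 4.59 and 1.26 FPKM in i4F, 2.86, 0.556, 0.904, 3.59 and 1.23 in i4F p53 KO and 2.89, 1.64, 2.42, 0.501 and 1.11 in i4F Ink4a/Arf KO.

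**Figure D3:**
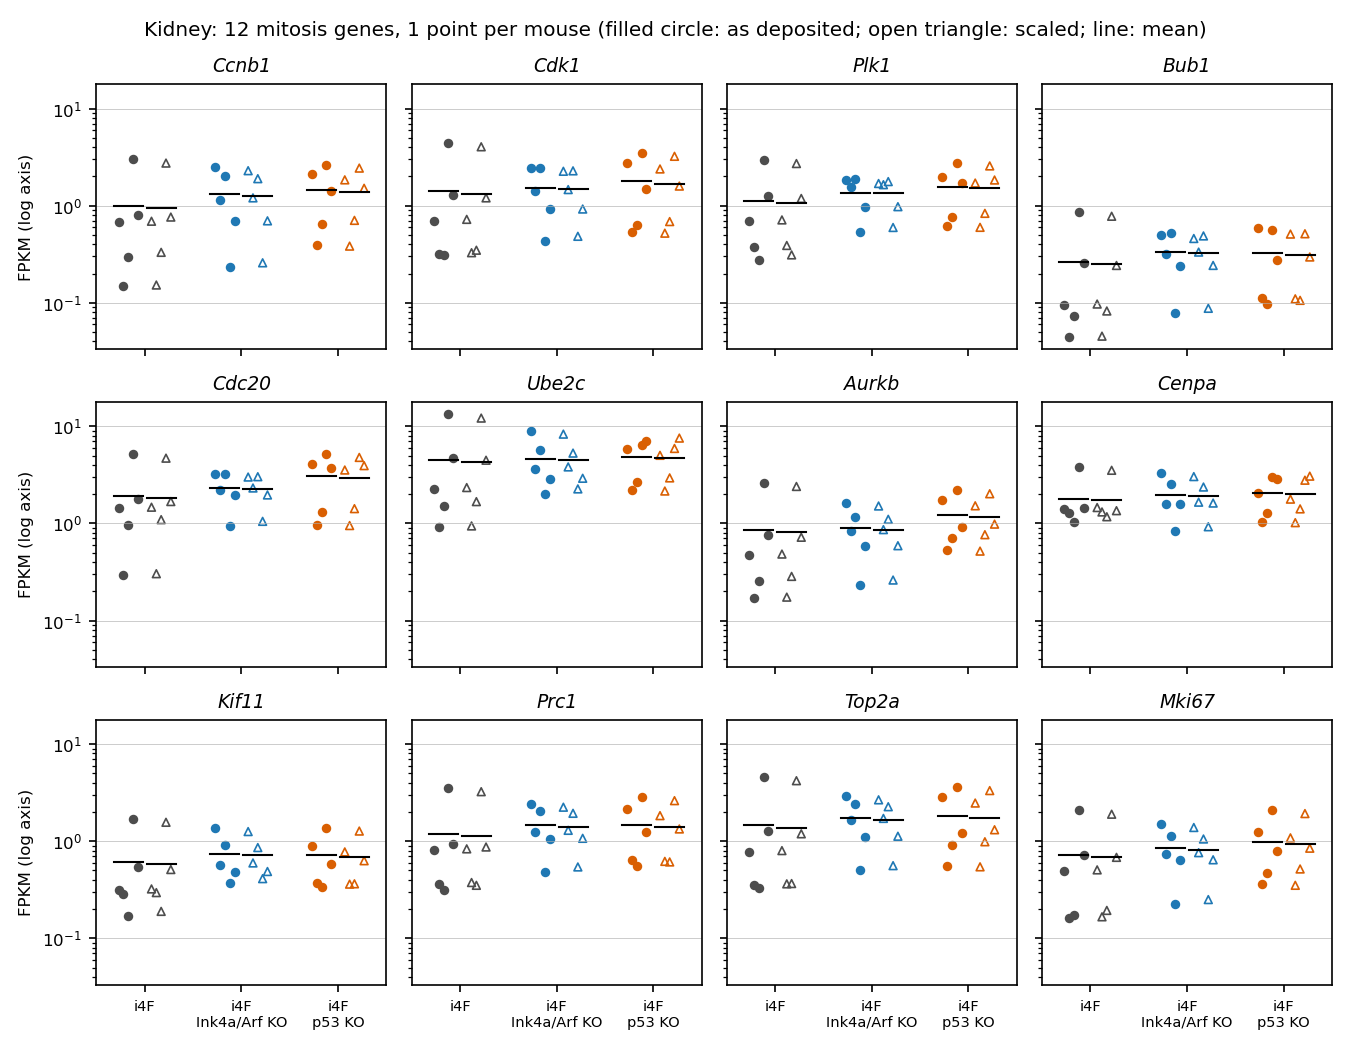
FPKM (log axis) of 12 members in each of the 15 kidney libraries, 1 point per mouse, by genotype. Filled circles are deposited values, open triangles scaled values and lines group means. The 3 genotypes overlap in every panel, and the i4F group spans the widest range in most panels through its replicate 4.

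Against i4F, i4F p53 KO kidneys had positive values for 36 of 38 members (median 0.20, all genes 0.01), but none passed (background 0.0462% higher and 0.0668% lower without the filter, 0.0873% and 0.108% after scaling) and the smallest limma adjusted p was 0.581. No member had groups apart (background 0.74%, and 1.09% after scaling). Leaving out single libraries, the deposited median ran from 0.0909 (without i4F p53 KO replicate 4) to 0.382 (without i4F replicate 4). Without the kidneys above 100 FPKM of Clps it was 0.38. Acinar markers summed to 2593, 2334 and 1906 FPKM in i4F p53 KO replicates 2, 3 and 4 and to 2270 in i4F replicate 5. In the other kidneys they summed to at most 412. With the filter, 26 members were tested (background 0.0885% higher and 0.169% lower) and the smallest adjusted p was 0.588, for Birc5. Birc5 measured 4.88, 1.24, 1.6, 7.27 and 4.72 FPKM against 1.36, 0.618, 0.952, 7.69 and 1.85 in i4F, a difference of 0.63 ± 0.46 (SE), the largest of the list. All 5 i4F p53 KO mice lay inside the i4F range, which replicate 4 stretched upward. By Xist and Ddx3y, i4F replicates 4 and 5 read as female and all 5 i4F p53 KO kidneys as male. Sex and group therefore partly coincide in this comparison too. The next was Cdc20 at 0.53 ± 0.40 (SE), and at the other end stood Spc25 at -0.35 ± 0.29 (SE) and Ect2 at -0.19 ± 0.25 (SE). Neutrophil markers, 7 genes, summed to 58.6 to 171.9 FPKM in i4F p53 KO against 13.6 to 24.6 in i4F, and 4 of the 7 passed as higher after scaling; their part in the members' values was not tested. Foxm1 and Mybl2 did not pass either (0.31 and 0.25), nor did any of the 74 further mitotic or 40 DNA replication genes.

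Kidneys without Ink4a/Arf gave a similar picture against i4F, with which the previous comparison shares its control mice. Values were positive for 36 of 38 (median 0.13, all genes 0.00), none passed (background 0%, and 0.611% of scaled genes with groups apart), the smallest limma adjusted p was 0.997 and 0 had an unadjusted p under 0.05. The largest difference was 0.37 ± 0.25 (SE) for Ect2, followed by 0.33 ± 0.40 (SE) for Cdc20, and the 2 below 0 were Spc25 at -0.26 ± 0.29 (SE) and, without the filter, Cenpe at -0.04 ± 0.07 (SE). The next lowest of the 26 above the filter was Kif23 at 0.08 ± 0.26 (SE). Between the knockouts, Ect2 was again at the edge of the list. It measured 1.1, 1.05, 0.835, 2.81 and 2.15 FPKM in i4F, 2.0, 1.06, 0.57, 2.25 and 0.572 in i4F p53 KO and 2.6, 2.12, 2.98, 1.47 and 2.14 in i4F Ink4a/Arf KO. Replicates 3 and 5 of i4F p53 KO were lowest of all 15 kidneys, but replicates 1 and 4 were inside the range of i4F Ink4a/Arf KO. The difference of -0.56 ± 0.25 (SE) between the knockouts had an unadjusted p of 0.0383, the only member so, and did not pass (limma adjusted p = 0.254; background 0.0257% higher and 0.036% lower without the filter, 0.0308% and 0.0822% after scaling, and 1.41% with groups apart). The highest differences there were 0.34 for Birc5 and 0.25 for Cdca3. The deposited median of the 38 between the knockouts was 0.0623, and -0.063 to 0.198 on leaving out single libraries. Without the kidneys above 100 FPKM of Clps it was 0.241. For i4F Ink4a/Arf KO against i4F, leaving out single libraries gave medians of 0.0575 to 0.352.

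The members varied widely between mice of one genotype, and nearly all of them together. The 38 members summed to 35.2, 22.8, 26.7, 124 and 56.1 FPKM in i4F replicates 1 to 5, to 78.6, 29.4, 33.8, 101 and 65.3 in i4F p53 KO and to 93.2, 51.7, 67.8, 28 and 42.6 in i4F Ink4a/Arf KO. Spc25, which did not follow the others, weighs heavily in these sums. It made up 10.1 of 26.7 FPKM in i4F replicate 3, 18.8 of 56.1 in i4F replicate 5 and 21 of 93.2 in i4F Ink4a/Arf KO replicate 1. Replicate 4 of i4F was the highest of all 15 kidneys for 28 members and among the top 3 for all 38, and i4F p53 KO replicate 4 was highest for 7 and among the top 5 for all 38. At the other end i4F replicate 2 was lowest for 16 and i4F replicate 3 for 13. Replicate 1 of i4F Ink4a/Arf KO and replicate 1 of i4F p53 KO were among the top 5 for 34 members each. Marker sums stood apart in that i4F Ink4a/Arf KO kidney, with 946.5 FPKM of erythroid markers against 113.5 to 163.9 in the other 4 of its group, 652 of macrophage markers against 88.6 to 173.8, and 18.8 of lymphocyte markers against 3.44 to 4.17. Their part in its members' values was not tested.

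**Figure D4:**
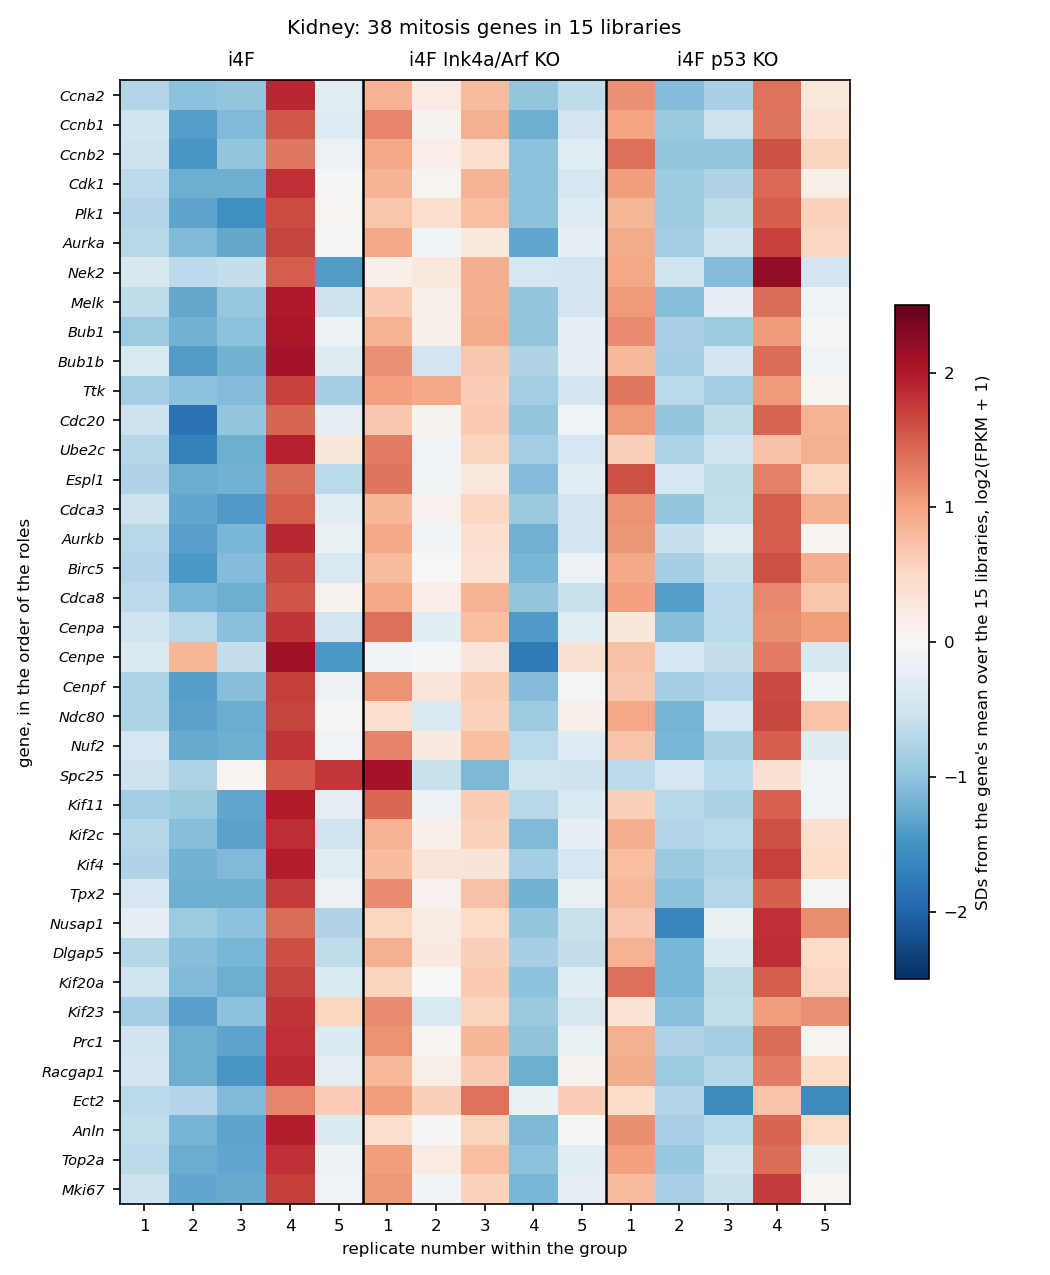
Level of each of the 38 members (rows, by role) in each of the 15 kidney libraries (columns, by genotype), in SDs of log2(FPKM + 1) from the gene's own mean over the 15. Columns are nearly uniform from top to bottom, with i4F replicate 4 high and i4F replicates 2 and 3 low, and Spc25 and Ect2 depart from the others.

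The change between p53 KO and i4F was larger in pancreas than in kidney for all 38 members by the test of the difference itself, a tissue by genotype term over all 30 libraries. The median excess was 2.63 as deposited (background 69.7% of 18910 genes) and 1.45 after scaling (18.1%). After scaling Ube2c had an excess of 2.64 ± 0.65 (SE), Cdc20 of 2.29 ± 0.46 (SE) and Anln of 2.61 ± 0.32 (SE), all with limma adjusted p of at most 0.00276. The groups set against each other differ in label as well as tissue, since only the kidney group is labelled i4F, so tissue and genotype cannot be told apart here. Myc, one of the 4 factors on the cassette, passed in pancreas after scaling (1.31 ± 0.13 (SE)) and Pou5f1 likewise (3.49 ± 0.37 (SE)), and neither passed in kidney (1.47 and 1.74). For i4F Ink4a/Arf KO no member passed the tissue difference (background 0%).

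Across the 15 kidneys, members were compared with Myc and Pou5f1, whose levels reflect cassette and own genes together. Myc measured 1.73, 1.63, 1.63, 11.2 and 5.35 FPKM in i4F, 37.7, 3.44, 6.8, 17.3 and 9.43 in i4F p53 KO and 3.98, 5.47, 9.32, 1.59 and 5.03 in i4F Ink4a/Arf KO. Pou5f1 measured 0.151, 0, 0.0417, 5.4 and 1.25 FPKM in i4F, 15.7, 0.65, 3.48, 8.86 and 4.88 in i4F p53 KO and 0.491, 2.55, 4.87, 0 and 1.05 in i4F Ink4a/Arf KO. The mice lowest in both, i4F replicates 1 to 3 and i4F Ink4a/Arf KO replicate 4, were also low in most members. By contrast, i4F Ink4a/Arf KO replicate 1, at 3.98 FPKM of Myc and 0.491 of Pou5f1, was among the top 5 kidneys for 34 members. Of 26 members above the filter 24 had a positive correlation with Myc that passed, with Benjamini-Hochberg adjusted permutation p under 0.05 over 12430 genes (20% of all genes), and the median Pearson r was 0.78 against 0.30 over all genes. By Spearman's rho 23 passed (11.9% of genes; median 0.83) and after scaling 20 (8.25%; median r 0.75 against -0.03 over all genes). With Pou5f1 21 members passed (13.1%; median r 0.76 against 0.24), 23 by Spearman's rho (10.4%) and 19 after scaling (6.67%). Each of these is one of 4 relations tested per gene, over 2 factors and 2 tissues, and values of one library share its depth and composition.

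**Figure D5:**
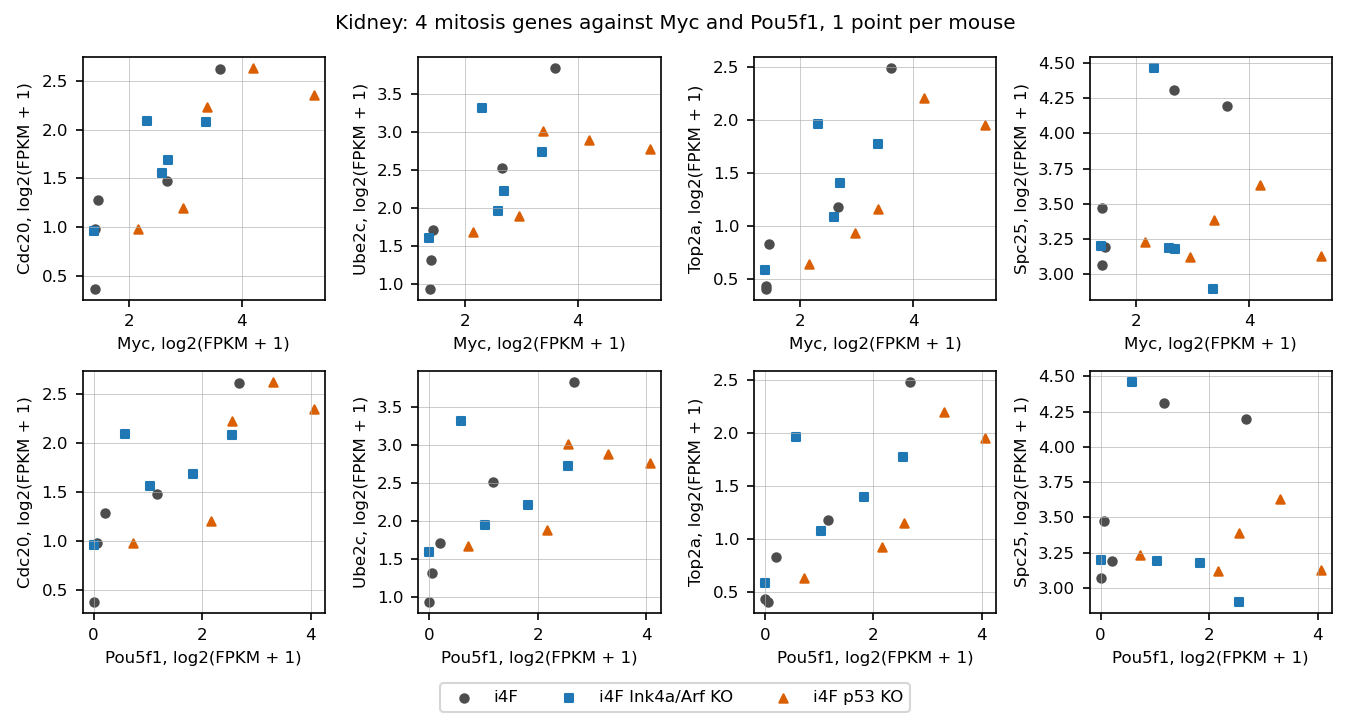
log2(FPKM + 1) of Cdc20, Ube2c, Top2a and Spc25 against Myc and Pou5f1 in the 15 kidneys, 1 point per mouse, marked by genotype. Cdc20, Ube2c and Top2a climb with both factors (Pearson r 0.67 to 0.82), and Spc25 does not (0.06 and -0.03).

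Kif20a, a motor of cytokinesis, had the highest r with Myc, 0.85 (Spearman's rho 0.84, permutation adjusted p = 0.00223). Anln followed with 0.84 (0.88), Cdc20 with 0.82 (0.88) and Birc5 with 0.82 (0.90). Ube2c had 0.70 (0.79) and Top2a 0.78 (0.81). The 2 that did not pass were Ect2 at 0.39 (0.35; permutation adjusted p = 0.276) and Spc25 at 0.06 (0.02; 0.89). With levels centred within each genotype, 22 members passed against Myc (12%) and 11 against Pou5f1 (2.5%), and Ect2 then had r = 0.82 with Myc. Leaving out the 2 kidneys farthest from the median Myc, i4F p53 KO replicates 1 and 4, the median r was 0.77, none passed over all genes (0.201% of genes did) and the smallest adjusted p of a member was 0.0713. For Pou5f1 the same 2 kidneys were left out, with a median r of 0.69 and none passing (0.0483%). Without those 2 kidneys 23 of 26 members still had an unadjusted p under 0.05 against Myc and 22 against Pou5f1. The calls over all genes were lost with 13 kidneys in place of 15, and whether through those mice or through their number was not tested.

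In pancreas the libraries labelled p53 KO form a cluster of their own in Myc (36.1 to 98.7 FPKM against 3.81 to 11.1), so the relation was examined in the other 10. The filter is not used for the members here, since they pass it only through the libraries labelled p53 KO. Without it 5 of 38 members passed against Myc with a median r of 0.54, but 38.9% of all genes passed too (63.1% with the filter), with a median of 0.66. Scaled values were tested only with the filter, and no gene passed there (0%). Against Pou5f1 none passed without the filter (0%), and 0 members had an unadjusted p under 0.05.

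Spc25 stood apart from the other members in kidney. It measured 8.14, 7.39, 10.1, 17.3 and 18.8 FPKM in i4F, 7.75, 8.4, 7.69, 11.4 and 9.46 in i4F p53 KO and 21, 8.04, 6.46, 8.19 and 8.11 in i4F Ink4a/Arf KO. Replicates 4 and 5 of i4F and replicate 1 of i4F Ink4a/Arf KO were above all the rest. In pancreas it was as low as other members outside the group labelled p53 KO, at 0.0867 to 0.637 FPKM. Its partners in the complex, Ndc80 and Nuf2, ran over all 15 kidneys from 0.0993 to 0.998 and from 0.238 to 1.61 FPKM. Spc25 is encoded on chromosome 2, from 69193895 to 69206194 on the minus strand of GRCm38. Gene-level values do not show from which start its kidney transcripts come.

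Reads of 8 members could be mixed with those of a protein-coding gene that overlaps on the other strand, since the kit keeps the strand but its use in counting is not given in the sources used here. These are Ccna2, Cdc20, Ube2c, Cdca8, Kif4, Nusap1, Kif20a and Prc1.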

How the data were processed

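The authors deposited gene levels as FPKM, one table per tissue, made with Cufflinks 2.2.1, TopHat2 2.0.10, SAMtools 0.1.19 and Bowtie 1.0.0 on mm10 per the submitters' processing notes, which give no roles. Libraries were stranded and poly(A)-selected per the labels' protocols. Counts were not used here, so depth per gene is unknown; steps among low values put relative depth at 0.88 to 1.17. The 38 members and the gene lists were chosen with earlier results of these data known.

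Values were taken as log2(FPKM + 1) and fitted with limma 3.58.1 in R 4.3.3 (eBayes with trend, all 15 libraries of a tissue, no covariate), keeping genes at 1 FPKM in at least 5 libraries, or all genes where the text says without the filter. Tests were two-sided, with Benjamini-Hochberg adjustment over all genes and a threshold of 0.05. Replicates are different mice, so p-values measure the spread between mice. The tissue difference was an interaction over 30 libraries. Correlations used 100000 permutations (Python 3.11.15, numpy 2.4.6, scipy 1.17.1). Both procedures were tested on simulated data. Members with values for every library were 12 fixed by role (Ccnb1, Cdk1, Plk1, Bub1, Cdc20, Ube2c, Aurkb, Cenpa, Kif11, Prc1, Top2a, Mki67) and the 2 highest and 2 lowest per comparison; Trp53, Cdkn2a, Cdkn1a, Myc, Pou5f1, Foxm1 and Mybl2 were always named, and of the other lists the 2 highest and 2 lowest could be. Promoters came from RefSeq and gene positions from GRCm38.p6. Alternatives were pseudocount, filter, scaling, quantile normalization, array weights, Xist as covariate, the replicate block, leaving out libraries, and no filter with scaling, the last added after the data were seen.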

Additional observations from a re-analysis of the deposited data

Results flagged for a closer look

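Single libraries stood far from the rest of their group in 17 of 72 groups examined (12 members in 6 groups of 5), a count to be read knowing that chance marks about 1 in 20 groups and that members vary together. In kidney i4F, replicate 4 was far above the other 4 mice for 8 of the 12 members: Ccnb1 at 3.0 FPKM, Cdk1 at 4.42, Bub1 at 0.850, Aurkb at 2.62, Cenpa at 3.85, Kif11 at 1.71, Prc1 at 3.54 and Top2a at 4.59. In pancreas i4F Ink4a/Arf KO, replicate 1 was far above its group for Ccnb1 at 1.13 FPKM, Cenpa at 1.72, Kif11 at 0.433, Prc1 at 0.788 and Mki67 at 1.70. In pancreas i4F, replicate 4 was far above for Bub1 at 0.114 FPKM, Aurkb at 0.723, Top2a at 1.00 and Mki67 at 0.446. Over all 38 members the same 3 libraries were high for 24, 16 and 8 members. The difference between p53 KO and i4F was larger in pancreas than in kidney for 38 of 38 members by the tissue by genotype term after scaling.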

How the results depend on the processing

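All 38 members kept their call in both pancreas comparisons of the libraries labelled p53 KO when any one of those 5 libraries was left out, without the filter and after scaling. The share of all genes called in those runs is not given here. With all 5 libraries, 26.7% of genes passed as higher against i4F and 27.7% against i4F Ink4a/Arf KO. With the filter, 36 members were called against i4F, 36 against i4F Ink4a/Arf KO and 26 in the tissue difference (background 91.2%, 91.7% and 90.7% higher). In pancreas the members pass the filter only through the libraries labelled p53 KO, so counts with a filter add no support. Leaving out single libraries gave 10 to 36, 10 to 36 and 10 to 26, with 10 for any one library labelled p53 KO left out, since fewer members then reach 1 FPKM in 5 libraries, and every member tested was called. A filter of 5 FPKM left 15, 15 and 1, all those tested. The median log2 fold change of the 38 was 2.81 and 2.76, with a pseudocount of 0.1 it was 4.98 and 4.86, and after scaling 1.61 and 1.53. No kidney or i4F Ink4a/Arf KO pancreas comparison gained a member call in any alternative run.

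Without the 2 farthest libraries the members called in kidney were 0 of 26 against Myc (0.201% of all genes) and 0 against Pou5f1 (0.0483%). Centred within genotype, 11 were called against Pou5f1 (2.5%). In pancreas, 8 members were called against Myc with the filter (63.1% of all genes), 0 after scaling (0%) and 5 without the filter (38.9%). Without the 2 farthest libraries, i4F replicates 1 and 2, 0 were called (0%). The members pass the filter only through the libraries labelled p53 KO. The cause of these changes in count was not tested.

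Differences near 0 that did not pass changed sign. Between the knockouts in kidney, Prc1 was 0.16 with Xist as covariate, 0.48 with array weights and 0.17 without the libraries above 100 FPKM of Clps, and Top2a -0.0038 after scaling, with or without the filter, and -0.014 after quantile normalization. In pancreas i4F Ink4a/Arf KO against i4F, Ccnb1 was -0.091 with a pseudocount of 0.1 and Prc1 -0.081 with array weights. Leaving out single libraries gave, in kidney i4F Ink4a/Arf KO against i4F, Aurkb -0.0188 to 0.26 and Cenpa -0.051 to 0.31. Between the knockouts in kidney it gave Ccnb1 -0.12 to 0.26, Cdk1 -0.12 to 0.27, Plk1 -0.066 to 0.24, Ube2c -0.11 to 0.32, Cenpa -0.11 to 0.20, Prc1 -0.19 to 0.13, Top2a -0.19 to 0.20 and Mki67 -0.049 to 0.21. In pancreas i4F Ink4a/Arf KO against i4F it gave Ccnb1 -0.12 to 0.15, Bub1 -0.0069 to 0.058, Cdc20 -0.059 to 0.15, Ube2c -0.066 to 0.53, Aurkb -0.048 to 0.19, Cenpa -0.027 to 0.32, Kif11 -0.074 to 0.085, Prc1 -0.085 to 0.089, Top2a -0.0595 to 0.28 and Mki67 -0.056 to 0.29.

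Kidney i4F p53 KO had 32 genes of any kind past the test against i4F (7 to 1721 over the alternatives) and 33 against i4F Ink4a/Arf KO (5 to 3321). Same-numbered mice shared only a number: in kidney i4F p53 KO against i4F 3 of 5 pairs had a correlation of deviations over 0.1, in the other comparisons 0 to 2. With the replicate number as a block the member counts were 0 in the 3 kidney comparisons and in pancreas i4F Ink4a/Arf KO. They were 36 and 36 in the pancreas p53 KO comparisons and 26 in the tissue difference. These runs used the filter too, so the 36, 36 and 26 add no support. Depth limits the members most in pancreas outside the libraries labelled p53 KO, where several values are 0.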

Other observations

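The sex of the mice, not in the labels, was read from Xist and Ddx3y. In kidney, Spc25 measured 19 ± 1.86 FPKM in the 3 females (17.3 to 21, n = 3) and 8.43 ± 1.31 in the 12 males (6.46 to 11.4, n = 12), with no overlap, an exact two-sided permutation p of 0.0022 over 455 splits, the smallest that design can give. After scaling the means were 17.6 and 8.59 with the same p. Spc25 was singled out after its values were seen, so this p-value gives no support. It was the only one of 38 members with every female above every male, against 584 of 19466 genes (3%), about the same share. The 3 females were i4F Ink4a/Arf KO replicate 1 and i4F replicates 4 and 5, and no i4F p53 KO kidney was female. In the 10 pancreas libraries outside the group labelled p53 KO, Spc25 measured 0.394 ± 0.194 FPKM in 4 females and 0.266 ± 0.208 in 6 males (exact permutation p = 0.305). Those 4 females were i4F replicates 3 to 5 and i4F Ink4a/Arf KO replicate 1. The libraries labelled p53 KO all read as male, with Ddx3y at 2.87 to 15.2 FPKM and Xist at most 0.856.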
